A study of Homo sapiens with 12 samples.

Results

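CD24, SNAI2, TWIST2, PRRX1, KLF4 and DCLK1 are genes tied to stem cell-like states and to the transition between epithelial and mesenchymal cells. They were taken as every transcript cluster of the array (the set of probes summarized into 1 value) whose platform annotation gave one of these symbols. Each gene had 1 transcript cluster, so the 6 genes made up 6 of the 53617 transcript clusters measured. The genes were picked because earlier results of the same comparisons had shown them to differ between lines, so their levels and changes are given as a description, with no p-value. Where one of them is said to be called, this records only on which side of the threshold of the fit it lay, and nothing is read from it. The arrays measured 3 stably transfected lines of BT-549, a mesenchymal human breast cancer cell line of the triple-negative type, with 4 arrays per line. BT-EV carried an empty vector (a control shRNA in the labels), BT-A6sh5 carried shRNA-5 and BT-A6sh2 carried shRNA-2, both against annexin A6 (ANXA6), a membrane protein that binds calcium. The study calls the lines sub-clones, so each line stands for the cells it was grown from as well as for its shRNA, and the share due to the shRNA and that due to the clone cannot be told apart. The sample titles call the arrays biological replicates while the text of the study speaks of technical ones, and separate cultures are not stated, so SDs and p-values measure only the spread between these arrays.

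In an epithelial to mesenchymal transition, cells give up their junctions and apical-basal polarity and take on a motile, fibroblast-like form. SNAI2 (Slug) is a zinc finger repressor and TWIST2 a basic helix-loop-helix factor, both of which bind E-box motifs in DNA, and PRRX1 is a paired-type homeobox factor, and all of them act in mesenchyme during development. KLF4 is a zinc finger factor of epithelia and of induced pluripotency, CD24 is a lipid-anchored surface protein whose low level, together with CD44, is used to sort breast cancer stem cell-like cells, and DCLK1 is a microtubule-associated kinase used to mark tuft cells and some tumor stem cells of the gut.

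The 3 stretches printed here, around RefSeq transcription start sites, are shown because SNAI2 and TWIST factors bind E-boxes and these were the windows of CD24, KLF4 and DCLK1 with the most E-boxes. Each window runs from 250 bases before to 50 bases after an annotated start site, in GRCh38.p14, and 5 of the 6 genes matched with 9 windows in all. The capitals mark E-boxes, searched as CANNTG on both strands. CD24 window 3 lies at chr6:106973990-106974289 on the minus strand, the KLF4 window at chr9:107489720-107490019 on the minus strand and DCLK1 window 3 at chr13:35855618-35855917 on the minus strand.
CD24 window 3: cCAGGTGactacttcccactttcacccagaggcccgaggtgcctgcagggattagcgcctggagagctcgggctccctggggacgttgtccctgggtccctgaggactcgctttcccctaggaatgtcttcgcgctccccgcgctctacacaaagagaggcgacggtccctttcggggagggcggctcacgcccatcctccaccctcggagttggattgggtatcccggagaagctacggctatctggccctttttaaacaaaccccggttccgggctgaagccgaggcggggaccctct
KLF4 window 1: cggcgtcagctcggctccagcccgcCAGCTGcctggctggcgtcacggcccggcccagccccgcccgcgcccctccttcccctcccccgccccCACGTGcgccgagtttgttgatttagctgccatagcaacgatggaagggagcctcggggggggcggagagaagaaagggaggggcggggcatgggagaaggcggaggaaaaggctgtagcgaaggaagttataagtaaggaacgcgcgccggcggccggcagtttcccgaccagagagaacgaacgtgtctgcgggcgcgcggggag
DCLK1 window 3: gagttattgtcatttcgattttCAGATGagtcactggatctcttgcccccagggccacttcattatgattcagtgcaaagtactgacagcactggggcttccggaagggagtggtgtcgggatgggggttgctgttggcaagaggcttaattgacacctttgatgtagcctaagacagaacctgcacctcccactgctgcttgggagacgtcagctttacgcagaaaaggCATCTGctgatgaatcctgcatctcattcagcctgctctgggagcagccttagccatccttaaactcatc
The E-box of CD24 window 3, which starts at position -249 from the start site, also reads CACCTG on the other strand, the form called an E2-box, so this match counts under both motifs. CACCTG was found in 1 of the 9 windows and in 20.6% of 35116 human windows of the same length, and CANNTG was found in 68.7% of them. The letters CACCC, part of the sites that KLF factors bind, were found in 59.9% of all windows, once in CD24 windows 1 and 2 and in DCLK1 window 1, and 2 times in CD24 window 3, in the PRRX1 window and in DCLK1 window 2. CD24 windows 1 and 2 overlap, and the CACCC match in each is the same site. A match describes the letters in a window, and binding was not measured.

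ANXA6 was read first as a check of the labels. On the log2 scale it averaged 11.41 ± 0.0258 (SD, n = 4) on the BT-EV arrays, 8.78 ± 0.0959 on the BT-A6sh5 arrays and 10.45 ± 0.108 on the BT-A6sh2 arrays, levels 6.17-fold and 1.94-fold below the control. One description, that of BT-A6sh2 replicate 1, names shRNA-5, while its title and its transfectant label name shRNA-2, and it was kept in BT-A6sh2. Of 5 mesenchymal markers 4 were analysed here, with group means of 6.18 to 12.58 on the log2 scale, and of 8 epithelial markers 7 were analysed, with group means of 3.47 to 7.10. The estrogen and progesterone receptors ESR1 and PGR had group means between 3.94 and 5.03, and CD14, PECAM1 and VWF, markers of blood and endothelial cells, had group means between 4.11 and 5.13. These 5 genes were not called in either knockdown line against BT-EV, and at an unadjusted p under 0.05 in limma 0 of them passed in BT-A6sh5, while for BT-A6sh2 the count was 1. Arrays 1 and 3 of BT-A6sh2 were set off from the rest, since their values over the array spread less (SD 2.18 and 2.19, and 2.26 to 2.33 on the others). The hybridization controls, foreign transcripts added to each sample, averaged 8.10 to 8.29 (log2) on the BT-EV arrays and of 8.50 to 9.05 on the others, without overlap, so a fit with this level as a covariate was added, and its values are given beside each of the 6 genes whose call it changed and for the lists as counts. In RNA from whole cultures, fewer cells that express a gene and less RNA per cell cannot be told apart.

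CD24 lay below BT-EV in each knockdown line, and further below it in BT-A6sh5. Its log2 level was 8.02, 7.77, 7.75 and 7.65 on BT-EV arrays 1 to 4. It was 4.01, 4.10, 4.11 and 4.15 on the BT-A6sh5 arrays and 5.71, 6.12, 6.01 and 6.13 on the BT-A6sh2 arrays. The 3 lines did not overlap, and every BT-A6sh2 array lay between the other two lines. The mean fell by 3.71 on the log2 scale (SE 0.115, 95% interval -3.96 to -3.46) in BT-A6sh5, a 13.1-fold lower level. In BT-A6sh2 it fell by 1.80 (95% interval -2.05 to -1.55), a 3.49-fold lower level, and the difference between the knockdown lines was -1.91 (95% interval -2.16 to -1.65). With the hybridization controls as a covariate the change in BT-A6sh2 was -1.65 (SE 0.28) and missed an adjusted p of 0.05 in limma, and 0 of the 6 genes passed in that line. ANXA6, the target of the shRNA, also missed it there, with -0.86 beside -0.96 without the covariate. A call lost in this fit therefore does not show that a gene was unchanged. On every BT-A6sh5 array CD24 lay below the median of 91 dim transcript clusters, which was 4.26 to 4.44 on these arrays. They were selected by the symbols of keratin-associated protein, beta-defensin, bitter taste receptor and vomeronasal receptor genes. These families are used in hair, host defense, taste and scent sensing. No detection call was used here, so whether CD24 RNA remained in BT-A6sh5 was not tested. Pseudogene copies of CD24 and of KLF4 are annotated, and probes that match such a copy would add its signal, which these values cannot separate.

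**Figure D1:**
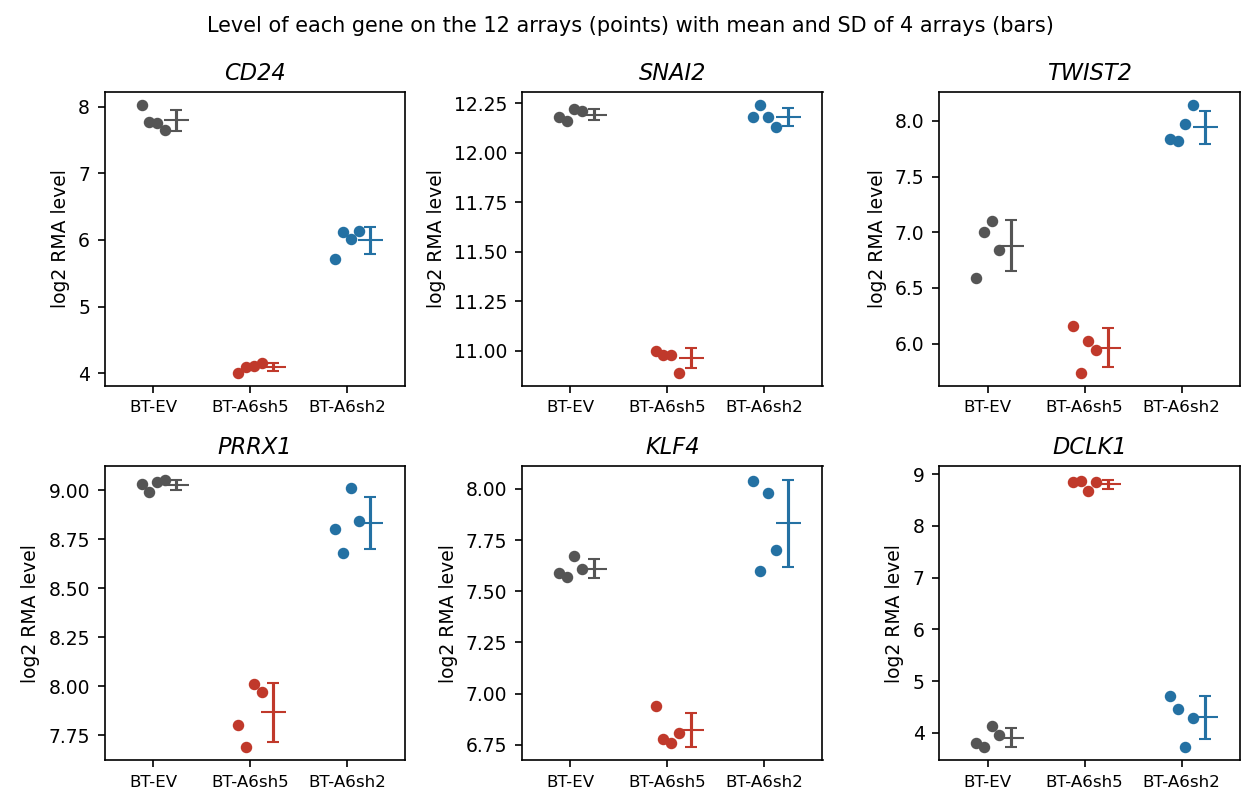
Log2 RMA level of each of the 6 genes (y axis, its own scale per panel) on the 4 arrays of BT-EV, BT-A6sh5 and BT-A6sh2 (x axis), with points for arrays in replicate order and bars for the mean and SD of 4 arrays. BT-A6sh5 stands apart from both other lines in all 6 panels, with DCLK1 high (8.68 to 8.86) and the other genes low, while BT-A6sh2 lies apart from BT-EV for CD24 and TWIST2.

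SNAI2 was lower in BT-A6sh5 alone among the knockdown lines. The BT-EV arrays had log2 levels of 12.18, 12.16, 12.22 and 12.21 and the BT-A6sh2 arrays 12.18, 12.24, 12.18 and 12.13, an overlapping and narrow range. The BT-A6sh5 arrays had 11.00, 10.98, 10.98 and 10.89, below every other array. The mean fell by 1.23 (SE 0.0725, 95% interval -1.39 to -1.07), a 2.34-fold lower level. In BT-A6sh2 the difference from BT-EV was -0.01 with a 95% interval of -0.17 to 0.15, and BT-A6sh5 differed from BT-A6sh2 by -1.22 (-1.38 to -1.06).

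TWIST2 moved in opposite directions in the 2 knockdown lines. Its log2 level on the BT-EV arrays was 6.59, 7.0, 7.10 and 6.84. The BT-A6sh5 arrays lay below all of these, at 6.16, 5.74, 6.02 and 5.94, and the BT-A6sh2 arrays lay above all of them, at 7.84, 7.82, 7.97 and 8.14. In BT-A6sh5 the mean fell by 0.92 (SE 0.134, 95% interval -1.21 to -0.62), a 1.89-fold lower level. In BT-A6sh2 it was 1.06 higher (95% interval 0.77 to 1.36), a 2.09-fold higher level. The knockdown lines thus lay 3.95-fold apart, with a difference of -1.98 on the log2 scale (95% interval -2.27 to -1.69). With the level of the hybridization controls as a covariate, which leaves little of the difference between lines to be estimated, the changes were -0.71 (SE 0.256) and 1.33 (SE 0.319), and neither passed an adjusted p of 0.05 in limma. TWIST2 lay above the median of the dim reference genes named for CD24 on every array, but above their 95th percentile on 1 of 4 arrays in BT-EV, on 0 in BT-A6sh5 and on 4 in BT-A6sh2, so in the first 2 lines its level was within the range of those genes.

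PRRX1 followed the order of SNAI2. Its log2 level was 9.03, 8.99, 9.04 and 9.05 on the BT-EV arrays and 7.80, 7.69, 8.01 and 7.97 on the BT-A6sh5 arrays, with no overlap. The BT-A6sh2 arrays had 8.80, 8.68, 9.01 and 8.84, of which replicate 3 lay within the BT-EV range and the others below it. The mean in BT-A6sh5 fell by 1.16 (SE 0.0995, 95% interval -1.38 to -0.94), a 2.24-fold lower level. In BT-A6sh2 the difference was -0.19, with a 95% interval of -0.41 to 0.02 that includes 0, and BT-A6sh5 differed from BT-A6sh2 by -0.97 (-1.18 to -0.75).

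KLF4 was also lowest in BT-A6sh5. The BT-EV arrays read 7.59, 7.57, 7.67 and 7.61 on the log2 scale, and the BT-A6sh5 arrays 6.94, 6.78, 6.76 and 6.81, all below BT-EV. The BT-A6sh2 arrays read 8.04, 7.60, 7.98 and 7.70, so that replicates 1 and 3, which stand apart over the whole array, were the highest and replicate 2 lay within the BT-EV range. The change in BT-A6sh5 was -0.79 (SE 0.107, 95% interval -1.02 to -0.55), a 1.72-fold lower level, and -0.82 (SE 0.213) with the hybridization controls as a covariate, where it missed an adjusted p of 0.05 in limma. In BT-A6sh2 the change was 0.22 (95% interval -0.01 to 0.46), and 0.04 without replicates 1 and 3. In BT-A6sh5 0 of 4 arrays lay above the 95th percentile of the dim reference, as for CD24 in BT-A6sh2. BT-A6sh5 differed from BT-A6sh2 by -1.01 (95% interval -1.24 to -0.77).

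DCLK1 was the gene of this set that was higher in BT-A6sh5. It had log2 levels of 3.81, 3.73, 4.13 and 3.96 on the BT-EV arrays and 8.85, 8.86, 8.68 and 8.85 on the BT-A6sh5 arrays, far apart. The BT-A6sh2 arrays had 4.72, 4.47, 3.73 and 4.29 and overlapped BT-EV, with replicate 3 among the BT-EV values and the others above them. The change in BT-A6sh5 was 4.90 (SE 0.179, 95% interval 4.51 to 5.29), a 29.9-fold higher level and rank 16 by absolute change among the 53617 transcript clusters. In BT-A6sh2 it was 0.39 (95% interval 0.00 to 0.79) and did not pass the threshold, while without BT-A6sh2 replicate 3 it was 0.58 and passed it. Every BT-EV array lay below the median of the 91 transcript clusters named above, which was 4.21 to 4.28 in BT-EV, so the fold depends on a reference level at which DCLK1 RNA was not shown to be present.

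Both knockdown lines were compared with the same 4 BT-EV arrays, so the comparisons are not independent of each other. At an adjusted p of 0.05 in limma, 6 of the 6 genes were called in BT-A6sh5 against BT-EV (5 lower and 1 higher), where 10.8% of all transcript clusters were called. In BT-A6sh2 against BT-EV 2 were called, CD24 lower and TWIST2 higher, where 8.49% of all were called, and in BT-A6sh5 against BT-A6sh2 6 were called, where 19.5% were. The arrays did not overlap for 6, 2 and 6 of the genes in the same order, against 23.6%, 18.4% and 20.5% of all transcript clusters. The genes were chosen from these comparisons, so nothing is read from the counts. The median log2 change of the 6 genes was -1.04 in BT-A6sh5 and 0.10 in BT-A6sh2, beside a median of 0.05 over all transcript clusters in both comparisons.

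**Figure D2:**
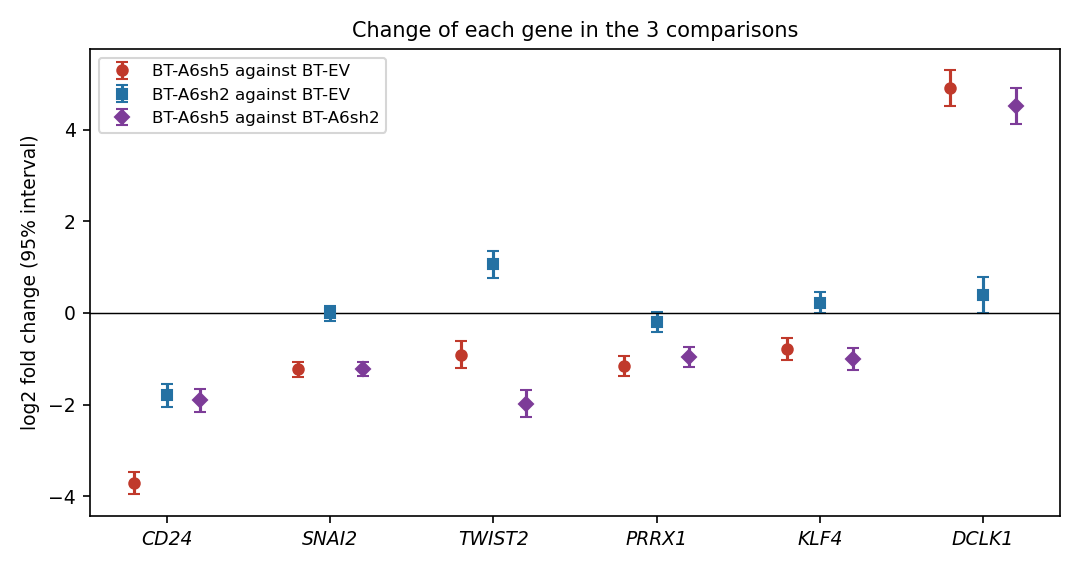
Log2 fold change (y axis) of each gene (x axis) in BT-A6sh5 against BT-EV, BT-A6sh2 against BT-EV and BT-A6sh5 against BT-A6sh2 (by color and marker), with bars for the 95% interval of the fit. Points for BT-A6sh2 against BT-EV are near 0 for SNAI2 (-0.01), PRRX1 (-0.19) and KLF4 (0.22), below 0 for CD24 (-1.80) and above 0 for TWIST2 (1.06).

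For every pair of the 6 genes the correlation over the 12 arrays was larger in size than after the mean of each line was subtracted. Pearson's r of SNAI2 with PRRX1 was 0.96 and that of SNAI2 with KLF4 was 0.94, and DCLK1 ran against both SNAI2 (r = -0.99) and PRRX1 (r = -0.98). The lowest correlation in size was that of CD24 with TWIST2, at 0.46. After the subtraction, r of SNAI2 with PRRX1 was -0.41, of SNAI2 with KLF4 -0.02 and of SNAI2 with DCLK1 0.24. The 12 points come from 3 lines, so these values describe the differences between lines and carry no p.

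In BT-A6sh5 each of the 6 genes kept its direction in all 24 alternatives. Against BT-EV, CD24 ranged from -3.76 to -3.60, SNAI2 from -1.25 to -1.20, TWIST2 from -1.02 to -0.71, PRRX1 from -1.29 to -1.10, KLF4 from -0.83 to -0.74 and DCLK1 from 4.84 to 4.98. In the shRNA-2 line, CD24 ranged from -1.85 to -1.65 and TWIST2 from 0.97 to 1.33. SNAI2 ranged from -0.03 to 0.04, PRRX1 from -0.37 to -0.14, KLF4 from 0.04 to 0.30 and DCLK1 from 0.26 to 0.58.

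**Figure D3:**
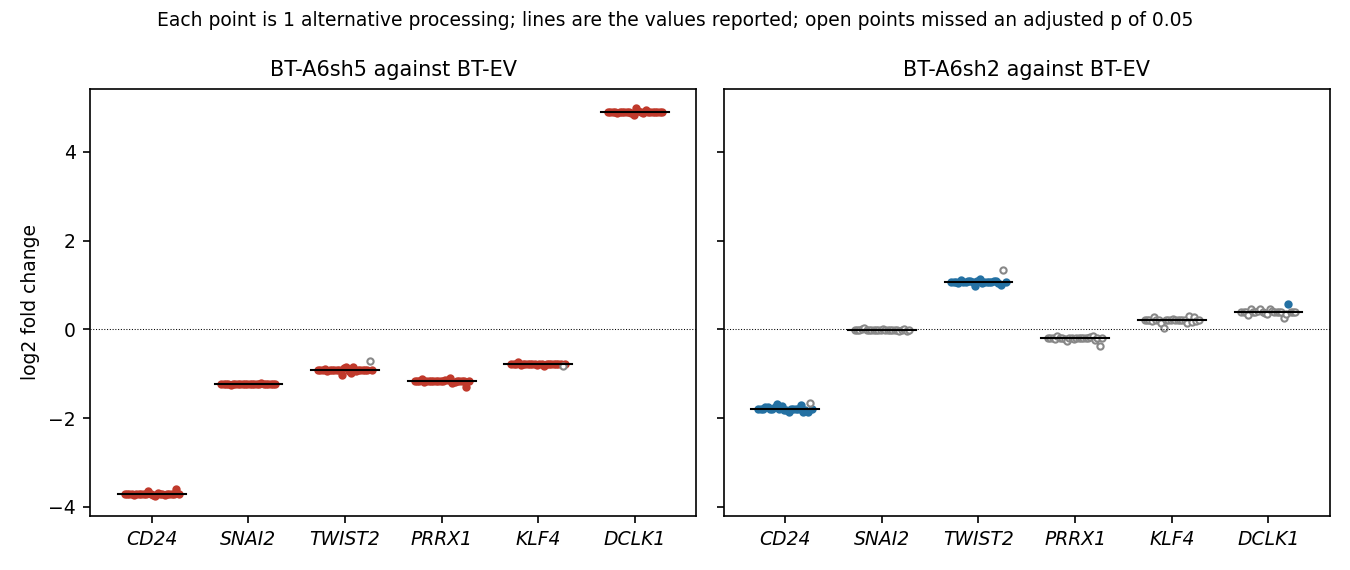
Log2 fold change (y axis) of the 6 genes (x axis) against BT-EV in BT-A6sh5 (left) and BT-A6sh2 (right) under 24 alternative settings, with 1 point per setting, filled where the adjusted p was under 0.05 and open where it was not, and a line at the value reported. Every point for CD24, SNAI2, TWIST2, PRRX1 and KLF4 in BT-A6sh5 lies below 0, and TWIST2 lies below 0 on the left (-1.02 to -0.71) and above 0 on the right (0.97 to 1.33).

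The partners, relatives and known targets of the 6 genes were set beside them. Lists of such genes held 172 genes, of which 125 were analysed here, and were written with earlier results of these data known. In BT-A6sh5 28 of these 125 genes were called against BT-EV (22.4%), 13 higher and 15 lower, where 6.30% of all genes were higher and 12.7% lower. In BT-A6sh2 21 were called (16.8%), 7 higher and 14 lower, where 5.13% were higher and 4.78% lower. Between the 2 knockdown lines 47 were called (37.6%), 30 higher and 17 lower in BT-A6sh5, where 11.3% were higher and 17.3% lower. These shares of all genes also stand beside the counts of each list below, some of which are near them. With the hybridization controls as a covariate, 0 of the 21 calls in BT-A6sh2 remained (13 list genes had an unadjusted p under 0.05 in limma), and of the 28 in BT-A6sh5 7 remained (BAMBI, KLF5, LHX2, LTBP1, LUM, OCLN and TAGLN), while 39 of the 47 between the knockdown lines did. All 28 and 21 kept their sign. Each adjusted p given for a list gene comes from the fit without the covariate, so rises and falls stated for BT-A6sh2, and those in BT-A6sh5 of genes other than these 7, hold for that fit.

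Of 14 transcription factors of the transition other than the 6 genes, 1 rose and 2 fell in BT-A6sh5 and 1 rose and 2 fell in BT-A6sh2. SOX9, a progenitor factor that acts with SNAI2 in mammary cells, went the way of TWIST2. Its mean log2 level was 8.62 in BT-EV, 8.14 in BT-A6sh5 (change -0.48, limma adjusted p = 0.00388) and 9.21 with shRNA-2 (0.59, adjusted p = 0.00408), and the difference between the knockdown lines was -1.07 (adjusted p = 8.58e-06). TCF4, an E protein that pairs with TWIST factors, went the other way, with changes of 0.53 and -0.33 in the shRNA-5 and shRNA-2 lines (adjusted p = 0.000729 and 0.027), the second of which was lost in 9 alternatives. LHX2, a LIM homeobox factor, fell by 1.25 in BT-A6sh5 (adjusted p = 0.00012) at 1 of its 2 transcript clusters, while the other gave -0.20 (adjusted p = 0.40). SOX4 was -0.51 in BT-A6sh2 (adjusted p = 0.00589). The close relatives SNAI1 (0.45 and -0.13), SNAI3 (0.07 and -0.90), TWIST1 (0.12 and -0.28), ZEB1 (-0.16 and -0.29) and ZEB2 (-0.15 and -0.08) did not pass the limma test in BT-A6sh5 or BT-A6sh2 against BT-EV. Even so, SNAI3 (limma adjusted p = 0.0514) and ZEB1 (0.103) lay below BT-EV on all 4 BT-A6sh2 arrays. SNAI1 lay above BT-EV on all 4 BT-A6sh5 arrays (limma adjusted p = 0.137). Of all transcript clusters 18.4% and 23.6% did not overlap BT-EV in BT-A6sh2 and BT-A6sh5. In BT-A6sh5 against BT-A6sh2, SNAI1 (0.58, adjusted p = 0.0338), SNAI3 (0.96, adjusted p = 0.021) and TWIST1 (0.39, adjusted p = 0.02) were higher, calls lost in 12, 4 and 8 of the alternatives, and 0 arrays of these genes lay above the 95th percentile of the dim reference.

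Among 7 helix-loop-helix partners and relatives of TWIST factors (the ID inhibitors were not analysed here), 4 rose and 0 fell in BT-A6sh5, while 0 rose and 2 fell in BT-A6sh2. TCF4 is in these counts and also in those of the transcription factors above, so the counts of the 2 lists are not independent. MSC (musculin), a helix-loop-helix repressor, had a mean log2 level of 7.51 on the BT-EV arrays, 8.85 in the shRNA-5 line and 6.79 in the shRNA-2 line, with changes of 1.34 and -0.72 (limma adjusted p = 6.94e-05 and 0.0137, the second lost in 3 of the alternatives), opposite in sign to those of TWIST2. TCF21, a helix-loop-helix factor of mesenchymal progenitors, was 0.55 higher in BT-A6sh5 (adjusted p = 0.0262), and this call was lost in 8 of the alternatives. TCF21 lay above the 95th percentile of the dim reference on 0 arrays in every line. Of 11 cofactors and turnover factors of SNAI2, 0 rose and 2 fell in BT-A6sh5. These were BTRC, a ubiquitin ligase subunit (-0.39, adjusted p = 0.0264), and CTBP1, a corepressor (-0.32, adjusted p = 0.0228), lost in 9 and 10 of the alternatives. In BT-A6sh2 AJUBA, a LIM protein that binds SNAI factors, rose by 1.01 (adjusted p = 0.000121), and 0 of the list fell.

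Of 20 epithelial genes, 1 rose and 0 fell in BT-A6sh5, and 0 rose and 2 fell in BT-A6sh2. The cadherin genes CDH1 and CDH2 were not among the genes analysed here. Of the 20, only CLDN3, KRT18, OCLN and CRB3 lay above the 95th percentile of the dim reference on any array. OCLN (occludin), a tight junction protein, averaged, in log2 units, 6.21 ± 0.234 (SD, n = 4) on the BT-EV arrays, 7.71 ± 0.179 in the shRNA-5 line and 6.28 ± 0.245 in the shRNA-2 line, and rose by 1.5 in BT-A6sh5 (limma adjusted p = 5.12e-05). In BT-A6sh2 the tight junction gene CLDN3 (-0.46, adjusted p = 0.0301) and the keratin KRT18 (-0.53, adjusted p = 0.0477) fell, and the calls were lost in 12 and 19 of the alternatives. A second KRT18 transcript cluster gave 0.23 (adjusted p = 0.385).

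Mesenchymal genes did not move as 1 block with SNAI2, TWIST2 and PRRX1. In BT-A6sh5 4 of the 11 analysed rose and 2 fell, while in BT-A6sh2 2 rose and 4 fell. LUM (lumican), a small proteoglycan of collagen matrix, averaged, in log2 units, 4.14 ± 0.172 in BT-EV and 11.80 ± 0.0661 in BT-A6sh5, a change of 7.66 (limma adjusted p = 4.97e-10), and 3.75 ± 0.499 in BT-A6sh2. LUM lay above the median of the dim reference on 2 of 4 BT-EV arrays and on 1 in BT-A6sh2, so the size of its change depends on a level not shown to be above background. Its relative DCN (decorin) rose by 1.33 in BT-A6sh5 (adjusted p = 4.75e-05), from a mean of 3.59 in BT-EV, below that median on all 4 arrays. TAGLN (transgelin), an actin-binding protein of smooth muscle, was 1.25 and 0.69 higher in the shRNA-5 and shRNA-2 lines (adjusted p = 2.3e-05 and 0.00677). TNC (tenascin C) changed by 0.51 and -0.74 in the 2 lines (adjusted p = 0.00455 and 0.00201), and FBN1 (fibrillin) by -0.67 in BT-A6sh2 (adjusted p = 0.00352), beside 0.12 in the other line (adjusted p = 0.598). The receptor kinase AXL, with -0.30 in BT-A6sh5 and 0.37 in BT-A6sh2 (adjusted p = 0.036 and 0.0202, lost in 12 and 9 of the alternatives), had the same signs as TWIST2, and the lines differed by -0.67 (adjusted p = 0.00015). VIM (vimentin) was -0.22 and -0.15 and did not pass in either line (adjusted p = 0.0881 and 0.22).

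**Figure D4:**
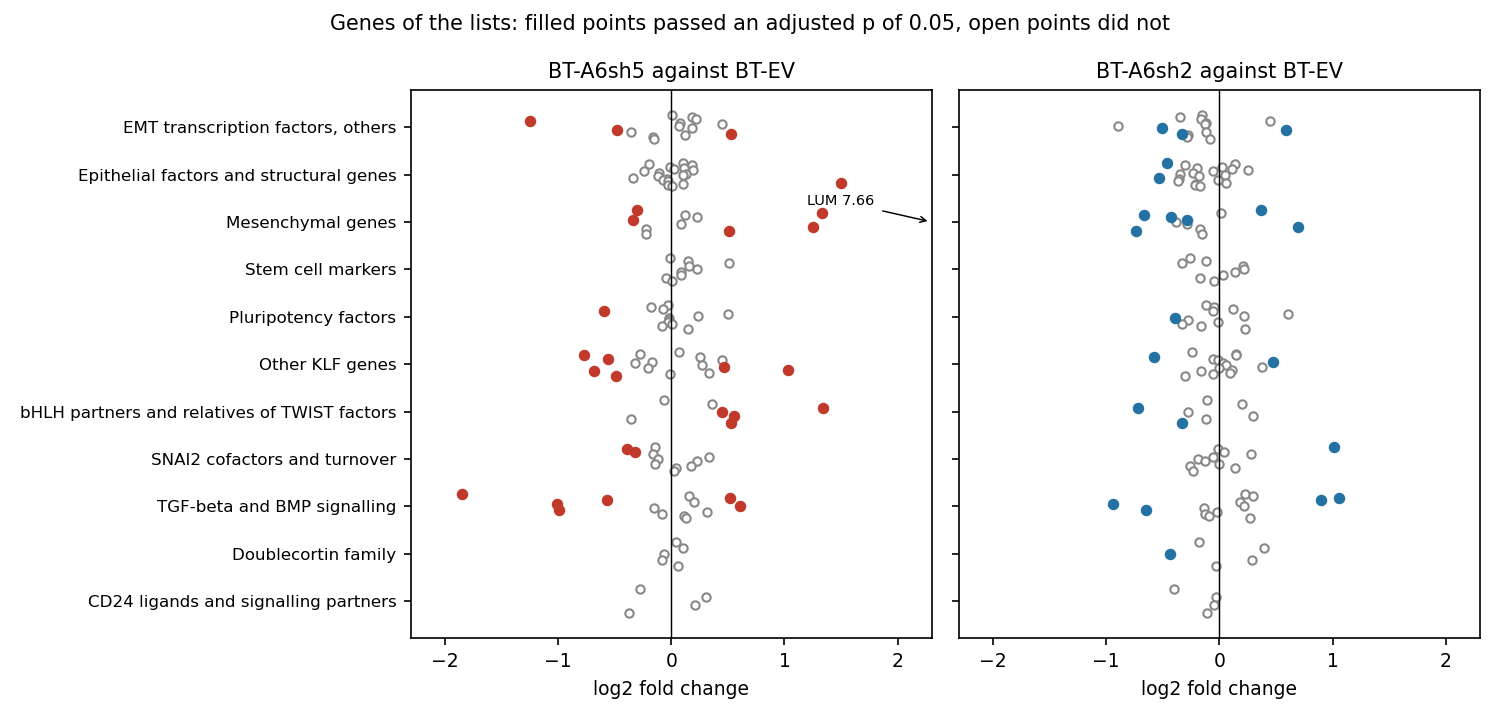
Log2 fold change (x axis, the same range in both panels) of the analysed genes of 11 lists (y axis) in BT-A6sh5 (left) and BT-A6sh2 (right) against BT-EV, with 1 point per gene, filled at an adjusted p under 0.05 and open otherwise. The arrow marks LUM, which lies off the axis at 7.66, and in BT-A6sh5 the filled points of the TWIST partner list all lie above 0 while in BT-A6sh2 they lie below it.

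The marker most often read together with CD24 gave no call. CD44, a hyaluronan receptor, averaged, in log2 units, 9.90 ± 0.0455 on the BT-EV arrays, 9.89 ± 0.0615 in the shRNA-5 line and 9.65 ± 0.148 in the shRNA-2 line (limma adjusted p = 0.975 and 0.0957). Of 9 stem cell markers analysed, 0 passed in BT-A6sh5 and 0 in BT-A6sh2 by limma, with 1 in each at an unadjusted p under 0.05, and their changes lay between -0.05 and 0.51 in BT-A6sh5 and between -0.33 and 0.22 in BT-A6sh2. Likewise 0 of 4 ligands and signalling partners of CD24 passed in either line, with 1 in each at an unadjusted p under 0.05. Of these markers all but CD44, and of these partners all but SRC, had 0 arrays above the 95th percentile of the dim reference in every line. For those genes the lack of a call describes levels not shown to be above background. Of 12 pluripotency factors, MYC fell by 0.59 in BT-A6sh5 (adjusted p = 0.00125), and PRDM14 fell by 0.39 in BT-A6sh2 (adjusted p = 0.0312), a call lost in 11 of the alternatives. PRDM14 and every other factor of this list except MYC had 0 arrays above the 95th percentile of the dim reference in every line.

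The other KLF genes that were called did not all go the way of KLF4. Of 16 analysed, 2 rose and 4 fell in BT-A6sh5, where 6.30% of all genes were higher and 12.7% lower. In BT-A6sh2 1 rose and 1 fell, near the shares of all genes (5.13% higher and 4.78% lower). KLF5, which is expressed in proliferating epithelia, rose by 1.03 in BT-A6sh5 (limma adjusted p = 8.05e-05), against the direction of KLF4. KLF5 lay above the 95th percentile of the dim reference on 1 of 4 arrays in BT-A6sh5 and on 0 in BT-EV and BT-A6sh2. KLF11, a factor induced by TGF-beta, fell by 0.77 (adjusted p = 0.000141), and KLF6 fell by 0.68 (adjusted p = 0.000206). In BT-A6sh2 KLF12 was -0.58 (adjusted p = 0.00228) and KLF15 was 0.47 (adjusted p = 0.0286), the latter lost in 12 of the alternatives. KLF15 lay above the 95th percentile of the dim reference on 0 arrays in every line.

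The relatives of DCLK1 did not rise with it. Of 5 other genes of the doublecortin family, 0 passed in BT-A6sh5 by limma, with 0 also at an unadjusted p under 0.05, and their changes there lay between -0.08 and 0.10. All of them except DCLK2 had 0 arrays above the 95th percentile of the dim reference in every line. For those genes the lack of a rise describes levels not shown to be above background. In BT-A6sh2 DCLK2 fell by 0.44 (adjusted p = 0.0166), which was lost in 6 of the alternatives, and the other 4 lay between -0.18 and 0.39.

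TGF-beta and BMP signals induce several of the 6 genes in other settings. Of 13 genes of these pathways analysed, 2 rose and 4 fell in BT-A6sh5, and 2 rose and 2 fell in BT-A6sh2. BAMBI, a decoy receptor that dampens TGF-beta signalling, averaged, in log2 units, 9.23 ± 0.0479 on the BT-EV arrays, 7.37 ± 0.109 in the shRNA-5 line and 9.45 ± 0.116 in the shRNA-2 line, low in the same line as SNAI2, PRRX1 and KLF4, and its change in BT-A6sh5 was -1.85 (limma adjusted p = 8.45e-08). LTBP1, which binds latent TGF-beta in the matrix, fell in both lines, by 1.01 (adjusted p = 2.82e-05) and 0.94 (adjusted p = 0.000397), and the SMAD corepressor SKIL fell by 0.99 and 0.65 (adjusted p = 0.000492 and 0.0177, the second lost in 5 of the alternatives). FST (follistatin), an activin and BMP binder, took the signs of TWIST2, with -0.57 in BT-A6sh5 and 0.90 in BT-A6sh2 (adjusted p = 0.000537 and 0.000143). BMP4 rose by 0.52 and by 1.06 (adjusted p = 0.0107 and 0.000553).

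The genes whose pattern over the 12 arrays was most like that of each of the 6 were ranked by Pearson's r, as a description with no p. SNAI2 was most like IGFBP5 (r = 0.998), an insulin-like growth factor binding protein, KIAA1191 (0.997) and SDC2 (0.997), a heparan sulfate proteoglycan. The change in BT-A6sh5 was larger in IGFBP5 (-4.61) and SDC2 (-3.28) than in SNAI2. CD24 was most like RXFP2 (0.990), ARHGEF3 (0.989) and STAM (0.989), and RXFP2, a relaxin family receptor, was -3.48 and -1.55 in the 2 knockdown lines. TWIST2 was most like CRIM1 (0.979), KCTD12 (0.977) and TMEM131L (0.977), all lower in BT-A6sh5 and higher in BT-A6sh2. PRRX1 was most like PDZRN3 (0.992), SKAP2 (0.987) and FLT3LG (0.986), and KLF4 was most like POC1A (0.988), MIR550A3HG (0.987) and NCK2 (0.986). DCLK1 was most like TSPAN13 (0.995), CPM (0.993) and MME (0.993), and the membrane peptidases CPM and MME were 3.72 and 3.42 higher in BT-A6sh5. The 12 arrays come from 3 lines, so r mainly ranks how well a gene follows the 3 line means. By Spearman's rho, which uses ranks alone, these 18 genes were not the most alike, with the nearest, TMEM131L to TWIST2, at rank 17 (rho 0.958) and the farthest, IGFBP5 to SNAI2, at rank 1690 (rho 0.615).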

How the data were processed

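The deposited values are log2 expression levels that the authors made from 12 Affymetrix Human Gene 2.0 ST arrays with Expression Console and RMA (background correction, quantile normalization and a summary per transcript cluster). The submitters' processing notes name affy, RMA and limma, without a version. All 53617 transcript clusters were analysed on the deposited scale, and 16098 had 1 symbol in the platform table, for 14884 genes, and 37519 are not named here. No value was missing, 0 pairs of arrays were identical and 0 columns lacked a sample. RMA shrinks differences between dim transcript clusters, and precision is limited by 4 arrays per line.

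The tests were two-sided and came from limma (version 3.58.1, R 4.3.3), with a mean for each of the 3 lines, 9 residual degrees of freedom and a prior worth 2.68 more. Each gene had 1 variance for all lines, although their spread was unequal. The residual SD was 0.196 for BT-EV arrays, 0.272 for the shRNA-5 line and 0.447 for the shRNA-2 line. Intervals can therefore be too narrow for comparisons with BT-A6sh2 and too wide for BT-A6sh5 against BT-EV. P-values were adjusted by Benjamini and Hochberg's method over every transcript cluster, and a gene was called at an adjusted p of 0.05. The method was tested on simulated data before use. There the noise was independent and had the same spread on all 12 arrays for a gene, so the unequal spread of the lines was not tested. The 6 genes, the 13 lists and the alternatives were chosen with earlier results of these data known. For a gene with several transcript clusters, that of the highest mean was used. Named genes were the 6, ANXA6, marker genes, up to 3 called genes of largest change per list and knockdown line, the 3 most like each of the 6 by Pearson's r, and SNAI1, SNAI3, TWIST1, ZEB1, ZEB2 and CD44 among the list members, singled out after their values were seen. The numbers in the titles were not used to pair arrays, because just 4 of 12 resembled an array of their own number most. Only 1 olfactory receptor transcript cluster was named, so 91 transcript clusters of other tissue-restricted families, chosen after the data were seen, served as a dim reference. Alternatives were a fit of each pair of lines, a trended robust prior, a filter on dim transcript clusters, quantile normalization, median centring, treat against a 1.2-fold change, the replicate block, array weights, 1 transcript cluster per gene and arrays left out. Added after the data were seen were a covariate holding the mean level of the 36 hybridization controls and leaving out 190 control probe sets. Promoter sequences came from RefSeq (GRCh38.p14). Figures were drawn in matplotlib 3.10.9 and Python 3.11.15.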

Additional observations from a re-analysis of the deposited data

Results flagged for a closer look

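TWIST2 lay below all BT-EV arrays in BT-A6sh5 and above them in BT-A6sh2, with a difference of -1.98 between the knockdown lines, and no test of it is used, since the gene was chosen from these comparisons. CRIM1 (-1.01), KCTD12 (-1.79) and TMEM131L (-0.63), picked for a pattern like that of TWIST2, differ in the same way by that choice. Genes of the lists called in opposite directions in the 2 lines differed between them by 0.86 (TCF4), -1.07 (SOX9), 1.24 (TNC), 2.06 (MSC), -1.47 (FST) and -0.67 (AXL) on the log2 scale, with limma adjusted p of 1.53e-05, 8.58e-06, 4.86e-06, 1.75e-06, 2.05e-07 and 0.00015. They were flagged for their opposite calls against the same BT-EV arrays, so a difference between the lines follows from that choice. Nothing further is read from these p-values.

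In 13 of 204 groups of 4 arrays 1 array stood far from the others, and chance gives about 1 in 20. DCLK1 on BT-A6sh5 replicate 3 was 8.68, with 8.85 to 8.86 on the others. LHX2 on BT-EV replicate 4 was 8.31 (8.29 on the others) and TCF4 on BT-A6sh5 replicate 1 was 9.97 (10.03 on the others), both small steps in narrow groups. SOX9 on BT-A6sh5 replicate 3 was 8.32 (8.06 to 8.10), and TAGLN on BT-A6sh5 replicate 2 was 8.36 (8.06 to 8.09). BAMBI on BT-A6sh5 replicate 2 was 7.21 (7.42 to 7.43). FST was 8.13 on BT-A6sh5 replicate 3 (8.32 to 8.34) and 9.81 on BT-A6sh2 replicate 1 (9.73). Among genes chosen for likeness, STAM on BT-A6sh5 replicate 2 was 10.55 (10.50 to 10.51), PDZRN3 on BT-A6sh2 replicate 2 was 6.28 (6.62 to 6.67) and SKAP2 on BT-EV replicate 1 was 7.50 (7.33 to 7.35). MME was 11.48 on BT-A6sh5 replicate 4 (11.63 to 11.64) and 8.38 on BT-A6sh2 replicate 4 (8.20 to 8.23).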

How the results depend on the processing

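The 6 genes kept direction and call under every alternative, apart from the covariate fit and the arrays named below, and apart from SNAI2 in BT-A6sh2, whose uncalled value lay between -0.03 and 0.04. As a limit, 4 arrays per line, the shared BT-EV arrays and levels near the dim reference bound what these values show. Such levels include CD24 in both knockdown lines, KLF4 in BT-A6sh5 and TWIST2 in BT-EV and BT-A6sh5. They also include DCLK1 and LUM in BT-EV and BT-A6sh2, DCN in every line, OCLN in BT-EV and BT-A6sh2, and TAGLN in BT-EV. KLF5 lay above the 95th percentile of the dim reference on 0 arrays in BT-EV and BT-A6sh2 and on 1 of 4 in BT-A6sh5.

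Counts were less stable than the 6 genes. The reported counts of transcript clusters were 2202 higher and 3598 lower in BT-A6sh5, 2871 and 1680 in BT-A6sh2, and 4375 and 6102 between the lines. With each pair of lines fitted alone, the spread of the remaining line did not enter the variance. In that fit BT-A6sh5 had 3995 higher and 22 list genes higher, and BT-A6sh2 had 944 higher, 664 lower and 6 list genes lower. BT-A6sh5 against BT-A6sh2 had 2200 higher, 3341 lower and 17 list genes higher. Treat gave 759 higher and 1341 lower (6 and 7 list genes) in BT-A6sh5, 175 and 169 (3 and 2) in BT-A6sh2, and 1232 and 1924 (12 and 8) between them. Array weights gave 4383 and 5525 (24 list genes higher) in BT-A6sh5 and 1796 higher in BT-A6sh2. Without BT-A6sh2 replicates 1 and 3, BT-A6sh5 had 3720 higher (22 list genes) and BT-A6sh2 1289 higher and 1079 lower. With 1 transcript cluster per gene, which tests fewer, 1370 were higher in BT-A6sh5 (22 list genes), 1287 higher in BT-A6sh2, and 2210 higher and 3144 lower between them. The filter on dim transcript clusters gave 20 list genes higher in BT-A6sh5, and repeated quantile normalization 1384 higher in BT-A6sh2. With the replicate block BT-A6sh2 had 1465 higher and 862 lower, and no call of the 6 genes changed.

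In the fit with hybridization control level as covariate, added after the data were seen, BT-A6sh5 had 425 higher and 505 lower (4 and 3 list genes), and BT-A6sh2 had 0 higher and 4 lower (0 and 0 list genes, 0 of the 6 genes) in limma, against 2356 and 2083 (3 and 10 list genes, 2 of the 6) at an unadjusted p under 0.05. Among the 6 genes the calls lost were TWIST2 (-0.71) and KLF4 (-0.82) in BT-A6sh5 and CD24 (-1.65) and TWIST2 (1.33) in BT-A6sh2. ANXA6, the target of the shRNA, also lost its call in BT-A6sh2 (-0.86, and -0.96 without the covariate). The cause of these shifts was not tested.

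With each array left out in turn, BT-A6sh2 had 865 to 5903 higher (lowest without BT-EV replicate 2, highest without BT-A6sh2 replicate 2), 618 to 3190 lower and 7 to 16 list genes lower, and each of the 4 BT-EV arrays moved the count of higher transcript clusters by over 1.5 times, as did BT-A6sh2 replicates 2 and 3. DCLK1 in BT-A6sh2 ranged from 0.26 to 0.58 and was called without BT-A6sh2 replicate 3, so that 2 to 3 of the 6 genes were called. For 62 other named genes (30 called list genes, the 18 chosen for likeness, ANXA6 and 13 singled out or read as markers), 4124 of 4443 values under an alternative kept direction and call or were uncalled in both, 270 lost a call, 49 gained one and 0 with a call reversed.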
